A study of Homo sapiens with 14 samples.

Results

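The genes described here moved the same way with Fucotrim I, Fucotrim II and SGN-2FF, 3 inhibitors of fucosylation, in the human prostate cancer line CWR22Rv1. The 8 libraries of these inhibitors were pooled and set against the 3 libraries of the vehicle, DMSO. A gene was taken where all 8 treated libraries lay above all 3 DMSO libraries, or all 8 below them. Of 14877 genes tested, 1477 lay above DMSO (9.93%) and 1769 below (11.9%), which makes 3246 genes in all (21.8%). The rule used these values, so the counts describe the choice.

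RNA was sequenced as stranded mRNA libraries from cells kept for 72 h in DMSO (3 libraries), 30 µM Fucotrim I (3), 60 µM Fucotrim II (2), 100 µM SGN-2FF (3) or 2 µM P-SiaFNEtoc (3), an inhibitor of sialylation. The fucosylation inhibitors thus make up 8 of the 14 libraries analysed here, and the cells carried no label of a genetic change in any group. Total counts on genes lay between 12553094 and 19981314 per library. The doses of the 3 fucosylation inhibitors differ, so their values stand side by side and were not compared by a test.

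The study's methods and the sample titles call the repeats biological. The labels do not say whether they were separate cultures, so a p-value here measures the spread between these libraries of 1 cell line. The luminal prostate markers checked, such as KLK2, KLK3, KRT8 and KRT18, were present in every library. CD3E of T cells had 0 counts in all 14 libraries, and the summed level of 5 leukocyte markers stayed at or below 0.779 CPM (counts scaled to the library total) and that of 4 endothelial markers at or below 0.239. The summed level of 6 fibroblast markers was 20.3 to 22.7 CPM in DMSO and 20.4 to 30.5 with the fucosylation inhibitors, most of it COL1A1. Along the first principal component (45.9% of the variance) the 2 Fucotrim II libraries lay farthest from DMSO. In bulk RNA, a change per cell and a change in the share of cells with a high level cannot be told apart.

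Fucose is a sugar that cells add to glycoproteins and glycolipids from the donor GDP-fucose, which is made de novo from GDP-mannose by GMDS and GFUS or salvaged from free fucose. Both Fucotrims derive from rhamnose-1-phosphate and were made to block GMDS, whereas SGN-2FF is a fluorinated fucose that enters by the salvage route. P-SiaFNEtoc acts on the addition of sialic acid, another terminal sugar, and here shows which moves were also seen with an inhibitor of a different sugar.

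Changes were tested with edgeR's quasi-likelihood test (Benjamini-Hochberg adjustment over all 14877 genes, threshold 0.05) with the 8 treated libraries as 1 group. This test called 1087 genes higher (7.31%) and 840 lower (5.65%). Among the genes of the rule, 963 of the 1477 above DMSO (65.2%) and 793 of the 1769 below (44.8%) passed it. The test and the rule use the same libraries, so a pass adds no independent evidence. The pooled test takes differences between the inhibitors as error. A second fit took each inhibitor as a group of its own, with the 3 weighted equally (the fit of 4 groups). It called 6936 of the 14877 genes tested, 3342 higher and 3594 lower. Counts of list members called in that fit are to be read beside these. Among the 6936 genes were all 35 named genes of the rule that the pooled test missed, so a gene said here not to pass may pass there. A call in that fit concerns the mean of the 3 inhibitors and need not hold for each. The number of calls rested on the controls. Without 1 DMSO library the test called 171 to 202 genes, without 1 Fucotrim I library 857 to 1273, and without 1 SGN-2FF library 2397 to 3429. The rule itself then gave 3307 to 4160 genes over the 11 libraries left out in turn. It is easier to meet with fewer libraries, so this rise does not show that the rule is stable. Fitted alone against DMSO, Fucotrim I had 6219 genes called (41.8%), Fucotrim II 7459 (50.1%), SGN-2FF 2997 (20.1%) and P-SiaFNEtoc 2342 (15.7%). All of these comparisons share the same 3 DMSO libraries, so a deviation of those 3 libraries and a response common to the treatments cannot be told apart.

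The sialylation inhibitor shared the move for part of the genes. Of the 1477 genes above DMSO, all 3 P-SiaFNEtoc libraries were also above DMSO for 794 (53.8%), below it for 27 and neither for 656. Of the 1769 genes below DMSO, P-SiaFNEtoc was also below for 1024 (57.9%), above for 30 and neither for 715. Over all genes tested, the 3 P-SiaFNEtoc libraries lay above DMSO for 16.3% and below for 16.6%. A test that leaves out DMSO compared the 8 treated libraries with P-SiaFNEtoc directly. It called 131 genes higher (0.881%) and 103 lower (0.692%) with the fucosylation inhibitors, among them 103 of the genes above DMSO and 55 of those below. Of these, 75 and 44 genes were not on the same side of DMSO with P-SiaFNEtoc. The count of 234 fell to between 11 and 21 without 1 P-SiaFNEtoc library and to between 92 and 135 without 1 Fucotrim I library, and it was 465 to 701 without 1 SGN-2FF library.

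**Figure D1:**
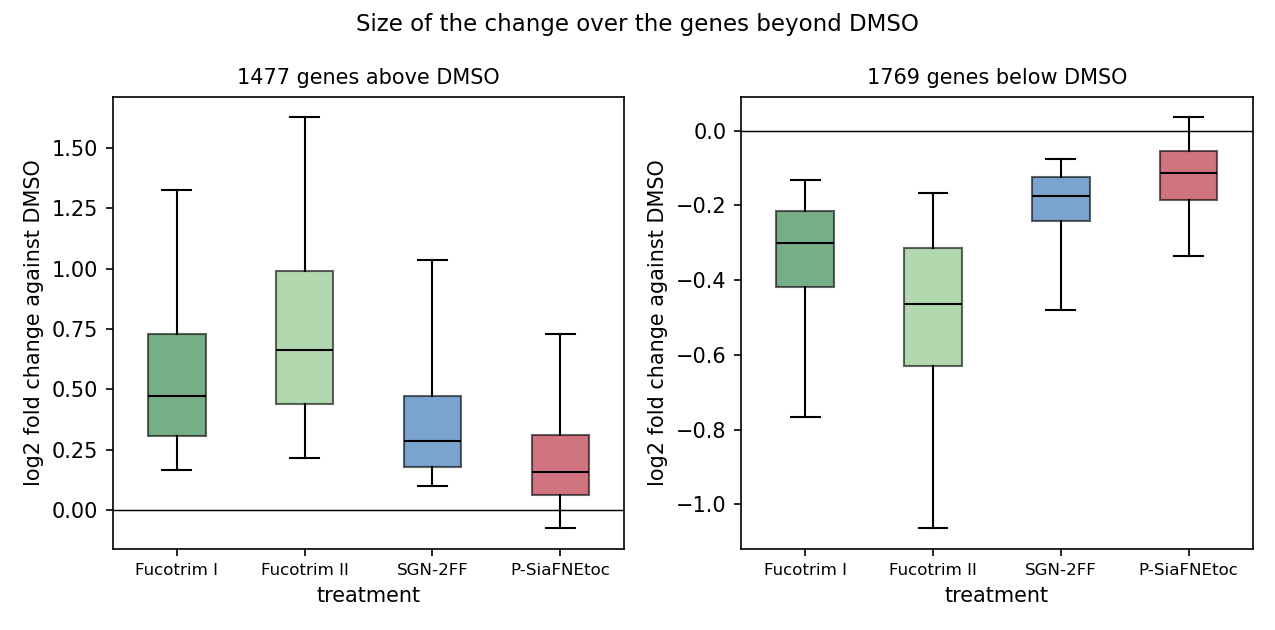
Log2 fold change against DMSO of the 1477 genes above DMSO (left) and the 1769 below (right), for each treatment. Boxes span the quartiles with the median as a line, whiskers reach the 5th and 95th percentiles, and the boxes of P-SiaFNEtoc lie nearest to 0 in both panels.

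The median log2 fold change of the genes above DMSO was 0.47 under Fucotrim I, 0.66 under Fucotrim II and 0.29 under SGN-2FF, beside 0.16 with P-SiaFNEtoc. For the genes below DMSO the medians were -0.30, -0.46, -0.17 and -0.11 in the same order. Over all genes tested the medians lay between -0.01 and 0.01. Large shared changes were mostly rises. A log2 fold change of at least 1 with each of the 3 inhibitors was reached by 52 genes above DMSO and by 7 below.

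**Figure D2:**
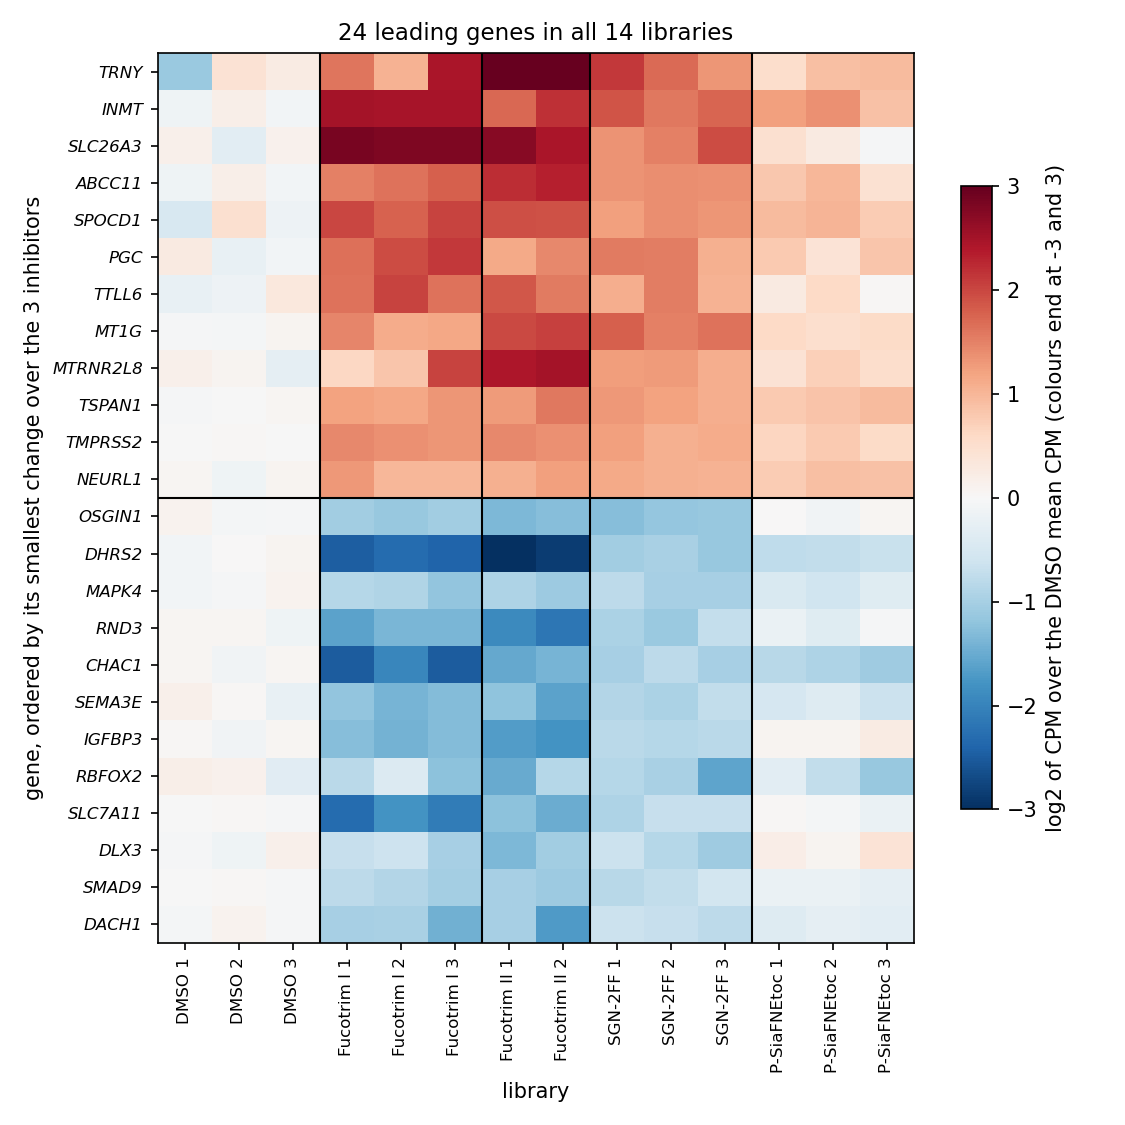
Log2 of CPM over the DMSO mean in each of the 14 libraries, for the 12 higher and 12 lower genes with the largest smallest change over the 3 inhibitors. Red is above and blue below the DMSO mean, and colours end at -3 and 3. The 8 treated libraries keep 1 colour in every row, while P-SiaFNEtoc is close to white for OSGIN1, IGFBP3 and SLC7A11.

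Few genes of the pathway the drugs aim at met the rule. Of 17 fucose pathway genes tested, 2 lay above DMSO (11.8%) and 1 below (5.88%), shares near those of all genes, with a median log2 fold change of -0.01. GMDS, the enzyme the Fucotrims were designed against, had 16.5, 16.6 and 15.5 CPM (from here on with TMM-scaled totals) in DMSO and 12.7 to 17.3 with the inhibitors (median 14.9). The ranges overlapped, and the pooled log2 fold change was -0.12 ± 0.10 (with its standard error, adjusted p = 0.398). FUOM, a mutarotase of free fucose, had 17.5, 17.1 and 18 CPM in DMSO, 22.6 to 30.1 with the inhibitors (median 25.7) and 21.5, 21.3 and 21.6 with P-SiaFNEtoc. It rose by 0.58 ± 0.10 on the log2 scale (adjusted p = 0.00465), with P-SiaFNEtoc between the controls and the treated libraries. FCSK, the fucokinase of the salvage route, rose by 0.37 ± 0.11 (adjusted p = 0.0397), a call that was lost without any 1 of the DMSO or Fucotrim I libraries or Fucotrim II replicate 1 (highest adjusted p = 0.151). FUT8, which adds core fucose to N-glycans, lay below DMSO in all 8 libraries (11.7 to 16.1 CPM against 16.5 to 17.1) without passing the test (log2 fold change -0.26 ± 0.10, adjusted p = 0.0786). The other 13 genes overlapped with DMSO, among them POFUT1 (log2 fold change -0.19, adjusted p = 0.0863), POFUT2 (0.26, adjusted p = 0.0865) and SLC35C1, the Golgi carrier of GDP-fucose (0.05, adjusted p = 0.749). The fit of 4 groups called 4 of the 17 higher and 2 lower. Among them were POFUT2 (0.28, adjusted p = 0.000452), SLC35C2 (0.19, adjusted p = 0.00315), POFUT1 (-0.20, adjusted p = 0.0143) and FUT8 (-0.29, adjusted p = 0.00349). GFUS had only 0.203 to 1.14 CPM in the treated libraries, too few counts to show a change of moderate size.

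Genes of neighbouring sugar pathways were counted in the same way. Of 8 genes of GDP-mannose supply and use, DPM3 and PMM1 lay above DMSO (25%, against 9.93% of all genes) and none below. The median log2 fold change was 0.18, and the fit of 4 groups called 4 of the 8 higher and 1 lower. DPM3, a subunit of dolichol-phosphate mannose synthase, had log2 fold changes of 0.84 ± 0.09 under Fucotrim I, 1.73 ± 0.10 under Fucotrim II and 0.29 ± 0.07 under SGN-2FF, and the pooled test did not call it (adjusted p = 0.0675), whereas the fit of 4 groups did (0.95, adjusted p = 2.94e-07). Of 20 sialic acid pathway genes, 2 lay above DMSO and 2 below (10% each), and the fit of 4 groups called 4 higher and 6 lower. Over this list, log2 fold changes ran from -1.72 to 0.61 under Fucotrim I, -1.98 to 0.82 under Fucotrim II and -0.56 to 0.63 under SGN-2FF. ST6GAL1, a sialyltransferase of N-glycans, rose by 0.57 ± 0.13 on the log2 scale (adjusted p = 0.0198) and by 0.70 ± 0.07 with P-SiaFNEtoc (adjusted p = 2.22e-08). ST3GAL1, a sialyltransferase of O-glycans, fell by 0.26 ± 0.06 on the log2 scale (adjusted p = 0.022) and was lower than with P-SiaFNEtoc (log2 difference -0.31 ± 0.06, adjusted p = 0.0324, and up to 0.212 without 1 library). Without 1 DMSO library the calls of ST6GAL1 and ST3GAL1 against DMSO were lost (highest adjusted p = 0.111 and 0.115).

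Targets of NRF2, the transcription factor that drives antioxidant and glutathione genes, were lower with all 3 inhibitors. Of 17 tested, 10 lay below DMSO (58.8%, against 11.9% of all genes), while 1, ABCC2, lay above. All 10 passed the pooled test, which uses the same libraries as the rule. This and the other lists were chosen with earlier results of these data known, so their shares describe and do not test. The 10 were FTH1, GCLC, GCLM, HMOX1, ME1, NQO1, OSGIN1, SLC7A11, SRXN1 and TXNRD1. The median log2 fold change over the list was -0.35 under Fucotrim I, -0.37 under Fucotrim II and -0.46 under SGN-2FF, beside -0.01 with P-SiaFNEtoc. P-SiaFNEtoc shared the move for 3 of the 10, and 7 members of the list were lower than with P-SiaFNEtoc in the direct test.

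OSGIN1, a growth inhibitor induced by oxidative stress (chr16:83953240-83966332, GRCh38.p14), led the lower genes. It had 30.4, 27.1 and 27.7 CPM in DMSO, 11.2 to 13.7 with the 3 inhibitors (median 12.8) and 28.7, 26.5 and 29.7 with P-SiaFNEtoc. The treated libraries thus lay apart from both other groups, and P-SiaFNEtoc overlapped with DMSO. The log2 fold change was -1.08 ± 0.09 under Fucotrim I, -1.31 ± 0.10 under Fucotrim II and -1.18 ± 0.08 under SGN-2FF. Pooled, OSGIN1 fell by 1.17 ± 0.08 on the log2 scale (adjusted p = 4.2e-06) and was as far below P-SiaFNEtoc (log2 difference -1.17 ± 0.08, adjusted p = 7.9e-06).

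TXNRD1, thioredoxin reductase (chr12:104215779-104350307, GRCh38.p14), had 1013, 1020 and 1016 CPM in DMSO, 592 to 661 with the inhibitors (median 644) and 963, 968 and 939 with P-SiaFNEtoc. All 8 treated libraries lay below the other 6. It fell by 0.68 ± 0.06 on the log2 scale (adjusted p = 2.81e-05), and the difference from P-SiaFNEtoc was -0.59 ± 0.06 (adjusted p = 0.000451). GCLM, the modifier subunit of the enzyme that starts glutathione synthesis, fell by 0.76 ± 0.10 (adjusted p = 0.000675) and lay below P-SiaFNEtoc by 0.56 on the log2 scale (difference -0.56 ± 0.10, adjusted p = 0.0135, and up to 0.124 without 1 P-SiaFNEtoc library). SLC7A11, the cystine importer that feeds that synthesis, had 118, 122 and 116 CPM in DMSO, 24.2 to 73.9 with the inhibitors (median 46.7) and 122, 114 and 103 with P-SiaFNEtoc. Its log2 fold change was -2.04 ± 0.09 under Fucotrim I, -1.35 ± 0.09 under Fucotrim II and -0.76 ± 0.05 under SGN-2FF. The spread between inhibitors entered the pooled test, which gave an adjusted p of 0.0176, and 0.055 against P-SiaFNEtoc. The call of SLC7A11 against DMSO was lost without any 1 DMSO library (highest adjusted p = 0.0839).

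The promoter of TXNRD1 is shown because its gene separated the inhibitors from both other groups and because it holds the antioxidant response element core, TGACNNNGC, that NRF2 binds with its partners. Promoters run from 250 bases before to 50 bases after the gene's start, 5′ to 3′ on the gene's strand, from RefSeq (GRCh38.p14). Capitals mark that core and the CCAAT box, CCAAT, on either strand.
TXNRD1 (chr12:104215529-104215828, plus strand): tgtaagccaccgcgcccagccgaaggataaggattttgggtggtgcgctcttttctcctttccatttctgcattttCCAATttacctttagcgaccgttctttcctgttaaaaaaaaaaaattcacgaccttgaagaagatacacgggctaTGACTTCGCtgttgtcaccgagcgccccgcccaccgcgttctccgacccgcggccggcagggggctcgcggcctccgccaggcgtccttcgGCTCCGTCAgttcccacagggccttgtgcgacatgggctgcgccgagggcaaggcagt
The core began at base 152 and, on the other strand, ended at base 251. It was found in 3 of 7 promoters of NRF2 targets below DMSO, beside 15.2% of all tested genes with a promoter entry and 13.6% of all RefSeq promoters. A match in these letters is a description and does not show binding. This promoter and those of CHAC1 and CKAP2L were chosen after their matches were seen, and those of INMT, SLC26A3, OSGIN1 and DHRS2, the leading genes by rank with an entry, held 1 match between them, a CCAAT box in SLC26A3.

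Among genes of amino acid supply, some lay below DMSO with all 3 inhibitors. Of 14 genes of the ATF4 branch, which cells turn on when amino acids or protein folding fail, 6 lay below DMSO (42.9%, against 11.9% of all genes) and 0 above. Of the 6, ASNS, ATF3, CHAC1, PSAT1 and SLC7A11 passed the pooled test and ATF4 itself did not, while TRIB3 passed with treated libraries that overlapped DMSO. P-SiaFNEtoc shared the move for 5 of them. Leaving out both Fucotrim II libraries brought the number below DMSO to 10, and the median log2 fold change over the list was -0.55 under Fucotrim I, -0.10 under Fucotrim II and -0.26 under SGN-2FF. Of 19 aminoacyl-tRNA synthetases, which load amino acids on tRNAs, 7 lay below (36.8%) and 1, QARS1, above. Among the 7, IARS1, TARS1 and EPRS1 fell by 0.39, 0.49 and 0.44 on the log2 scale (adjusted p = 0.0222, 0.0344 and 0.0269), and each lost its call without any 1 DMSO library.

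CHAC1, which degrades glutathione and is a target of ATF4, had 14.8, 13.1 and 14.7 CPM in DMSO, 2.51 to 8.2 with the inhibitors (median 5.15) and 8.03, 7.44 and 6.81 with P-SiaFNEtoc. SGN-2FF and P-SiaFNEtoc held like levels, and the 2 Fucotrims lay below both. The log2 fold change was -2.28 ± 0.15 under Fucotrim I, -1.46 ± 0.13 with Fucotrim II, -0.92 ± 0.11 with SGN-2FF and -0.93 ± 0.10 with P-SiaFNEtoc. Pooled, CHAC1 fell by 1.45 ± 0.27 (adjusted p = 0.00861, and up to 0.0628 without DMSO replicate 1 or 3), and its difference from P-SiaFNEtoc did not pass (-0.52 ± 0.29, adjusted p = 0.304). ASNS, asparagine synthetase, had log2 fold changes of -1.04 ± 0.05, -0.51 ± 0.06 and -0.47 ± 0.04 under Fucotrim I, Fucotrim II and SGN-2FF (pooled adjusted p = 0.0123, and up to 0.0716 without 1 DMSO library). PSAT1, an enzyme of serine synthesis, had -0.85 ± 0.05, -0.67 ± 0.06 and -0.37 ± 0.04 in that order (pooled adjusted p = 0.00857, and up to 0.0642 without DMSO replicate 1 or 2).

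The promoter of CHAC1 is shown because it holds the core of the C/EBP-ATF element, TGATGNAA, through which ATF4 acts. Capitals mark that core, here on the other strand, and CCAAT boxes.
CHAC1 (chr15:40953221-40953520, plus strand): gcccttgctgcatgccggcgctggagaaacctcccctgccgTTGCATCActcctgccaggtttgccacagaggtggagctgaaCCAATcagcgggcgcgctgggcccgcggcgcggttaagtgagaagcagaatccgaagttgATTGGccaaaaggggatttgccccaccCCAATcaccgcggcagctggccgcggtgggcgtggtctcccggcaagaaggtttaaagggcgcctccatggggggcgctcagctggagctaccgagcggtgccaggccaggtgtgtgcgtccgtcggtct
The core was present in 3 of 5 promoters of ATF4 branch genes below DMSO (CHAC1, ASNS and ATF3), in 1.72% of promoters of all genes tested and in 3.67% of all RefSeq promoters.

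Genes of the folding machinery and of sterol synthesis were shared less evenly. Of 23 ER chaperones and degradation factors, 4 lay below DMSO (17.4%), and none of the 4 passed the pooled test, while the fit of 4 groups called 16 members lower. HSPA5, the main chaperone of the endoplasmic reticulum, had 1697, 1674 and 1636 CPM in DMSO. It stood at 486, 659 and 653 under Fucotrim I, at 1351 and 1379 with Fucotrim II, and at 1583, 1602 and 1573 with SGN-2FF. The 8 values lay below DMSO, but the Fucotrim I libraries lay farthest below, and the pooled adjusted p was 0.261. Of 20 genes of cholesterol synthesis and uptake, 4 lay below (20%), and 11 did so without both Fucotrim II libraries. The median log2 fold change over this list was -0.48 under Fucotrim I, 0.06 under Fucotrim II and -0.16 under SGN-2FF. STARD4, a sterol carrier, fell by 0.64 ± 0.15 on the log2 scale (adjusted p = 0.0193, and up to 0.104 without 1 DMSO library). Of 14 heat shock proteins, 5 lay below (35.7%) and HSPB1 above, with 0 called by the pooled test in either direction, and 2 higher and 10 lower in the fit of 4 groups.

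Androgen response genes were mostly higher. Of 13 tested, 9 lay above DMSO (69.2%, against 9.93% of all genes), while ACSL3 lay below. All 9 passed the pooled test, which uses the same libraries as the rule. P-SiaFNEtoc shared the move for 8 of the 9, and 4 members were higher than with P-SiaFNEtoc in the direct test. The median log2 fold change over the list was 0.35 under Fucotrim I, 0.59 with Fucotrim II, 0.56 with SGN-2FF and 0.21 with P-SiaFNEtoc. Of the 8 luminal markers, some of which, such as KLK2 and KLK3, are also in this list, 6 lay above DMSO, and 1, FOXA1, below.

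TMPRSS2, an androgen-induced serine protease (chr21:41464305-41508158, GRCh38.p14), had 28.9, 29.9 and 28.8 CPM in DMSO, 61.4 to 79.9 with the inhibitors (median 74.3) and 45.4, 50.4 and 43.4 with P-SiaFNEtoc. The 3 ranges did not overlap, with P-SiaFNEtoc in the middle. It rose by 1.30 ± 0.09 on the log2 scale (adjusted p = 4.2e-06) and was 0.63 ± 0.09 above P-SiaFNEtoc (adjusted p = 0.00552, and up to 0.0788 without P-SiaFNEtoc replicate 1 or 3). KLK3, which encodes prostate-specific antigen, had 32.3, 31.9 and 27.5 CPM in DMSO, 44.1 to 79.2 with the inhibitors (median 70.2) and 47.3, 43.1 and 47.7 with P-SiaFNEtoc. The Fucotrim II libraries, at 48.2 and 44.1 CPM, were near those of P-SiaFNEtoc, and the other 6 treated libraries lay above all 3 of these. KLK3 rose by 1.09 ± 0.17 (adjusted p = 0.00321), and its difference from P-SiaFNEtoc did not pass (0.50 ± 0.16, adjusted p = 0.109). KLK2, its neighbour in the kallikrein cluster, rose by 1.05 ± 0.12 (adjusted p = 0.00038) with the inhibitors and by 0.75 ± 0.05 with P-SiaFNEtoc (adjusted p = 1.31e-12). SLC45A3, a prostate membrane transporter, rose by 0.81 ± 0.14 (adjusted p = 0.00465) and was 0.60 ± 0.13 above P-SiaFNEtoc (adjusted p = 0.036, and up to 0.213 without 1 library).

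Metallothioneins, small zinc-binding proteins, rose together. Of 6 tested, 5 lay above DMSO (83.3%), and all 6 passed the pooled test. The median log2 fold change was 0.92 under Fucotrim I, 1.56 with Fucotrim II, 1.27 with SGN-2FF and 0.35 with P-SiaFNEtoc, which shared the move for 4 of the 5. MT1X had 18.6, 16.6 and 16.2 CPM in DMSO, 31.5 to 58.1 with the inhibitors (median 41.4) and 22.7, 20.1 and 24.1 with P-SiaFNEtoc. P-SiaFNEtoc lay between the other groups without overlap. MT1X rose by 1.33 ± 0.17 (adjusted p = 0.000673) and MT1G by 1.63 ± 0.20 (adjusted p = 0.000442), and the log2 differences from P-SiaFNEtoc were 0.96 ± 0.17 and 1.07 ± 0.19 (adjusted p = 0.0135 for each, and up to 0.125 and 0.112 without 1 P-SiaFNEtoc library). MT2A rose by 0.87 ± 0.16 (adjusted p = 0.00757, and up to 0.0697 without DMSO replicate 1 or 2). These genes are near copies of each other, so the split of reads between them is uncertain.

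**Figure D3:**
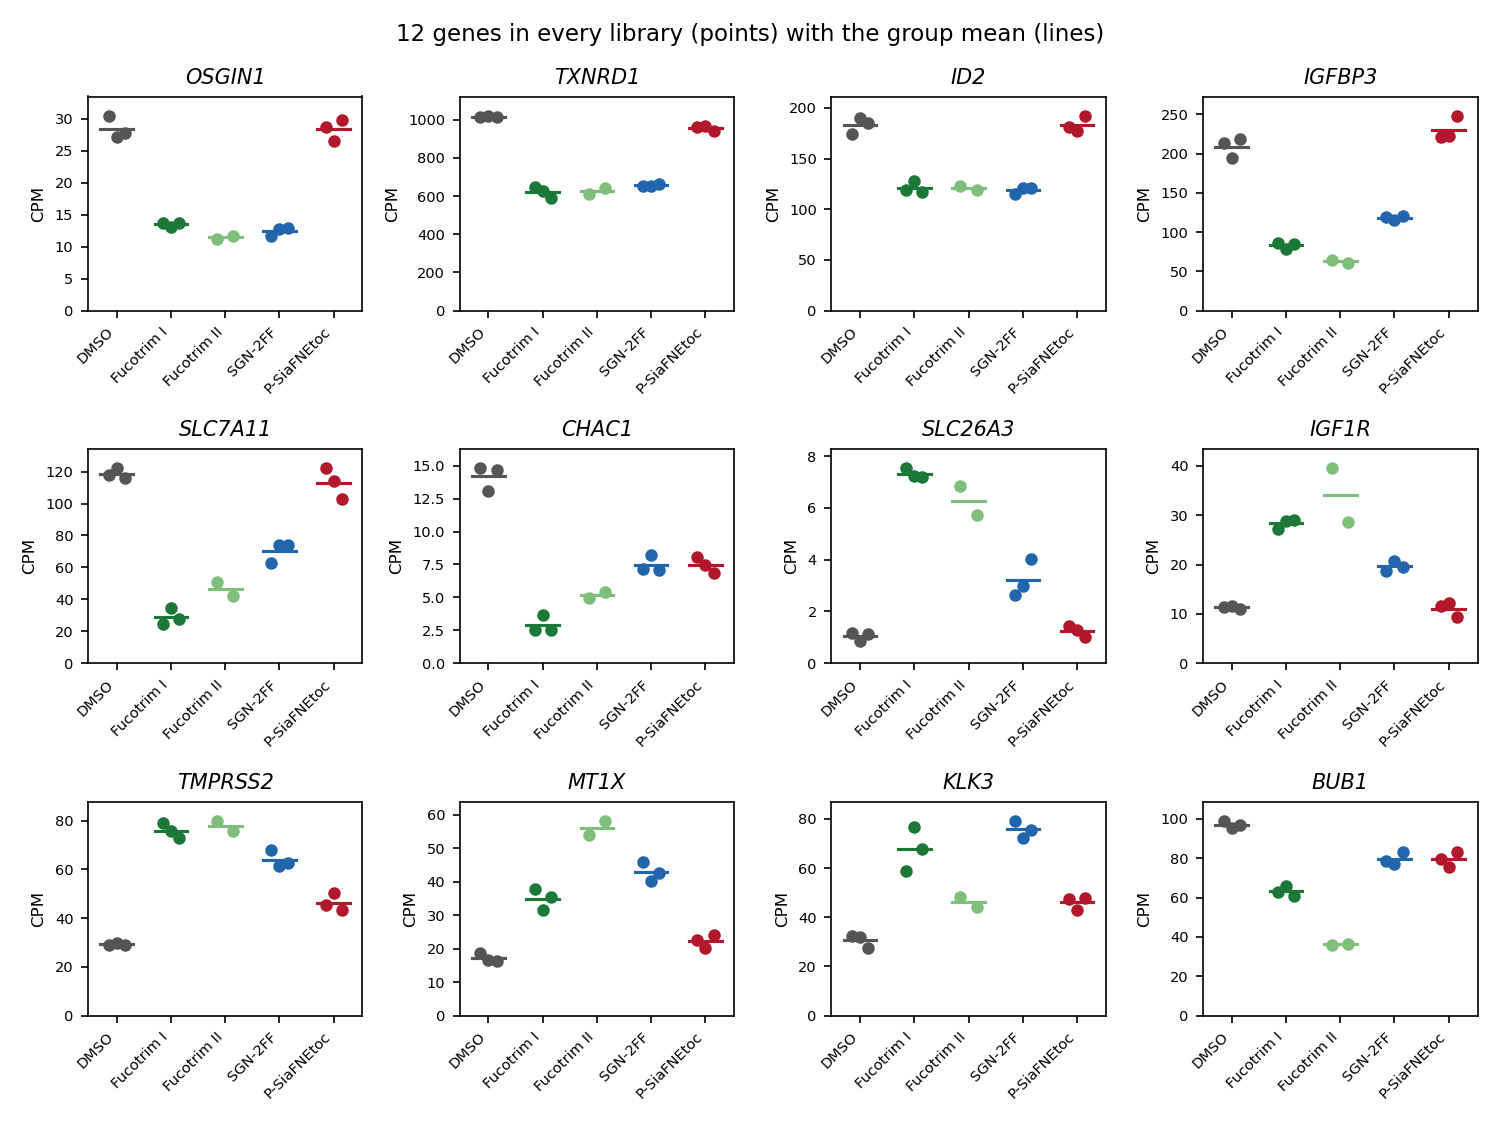
CPM in each library (points) and the group mean (lines) for 12 genes, with axes from 0. OSGIN1, TXNRD1, ID2, IGFBP3 and SLC7A11 are low in the 8 libraries of the fucosylation inhibitors and near the DMSO level with P-SiaFNEtoc, whereas TMPRSS2 and MT1X step up from DMSO to P-SiaFNEtoc to the fucosylation inhibitors.

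Every one of the 13 mRNAs encoded in mitochondrial DNA, which code for subunits of the respiratory chain, lay above DMSO in all 8 libraries, and 12 passed the pooled test. With P-SiaFNEtoc 0 of 13 lay above or below DMSO, with a median log2 fold change of 0.03. The medians were 1.04 under Fucotrim I, 1.43 under Fucotrim II and 0.43 under SGN-2FF. COX2, a subunit of cytochrome c oxidase, had 6992, 7898 and 6805 CPM in DMSO, 9965 to 22914 with the inhibitors (median 12844) and 7077, 7760 and 7815 with P-SiaFNEtoc. P-SiaFNEtoc overlapped with DMSO and the 8 treated libraries did not. COX2 rose by 1.00 ± 0.27 (adjusted p = 0.0308) and ND1 by 1.03 ± 0.27 (adjusted p = 0.03), but neither passed against P-SiaFNEtoc (adjusted p = 0.0753 and 0.0765). Both calls against DMSO were lost without any 1 DMSO library or Fucotrim I replicate 3 (highest adjusted p = 0.132 and 0.129). The tRNA gene TRNY and the nuclear gene MTRNR2L8, a near copy of a mitochondrial rRNA that may share its reads, were also among the 12 leading rises (2.50 ± 0.66 and 1.67 ± 0.43, adjusted p = 0.032 and 0.029). Without any 1 DMSO library neither kept its call (highest adjusted p = 0.141 and 0.112).

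As a share of all counts, mitochondrially encoded genes took 5.98 to 7.03% in DMSO, 6.11 to 6.83% with P-SiaFNEtoc and 8.27 to 17.0% with the 3 inhibitors (median 10.3%). The 8 treated libraries lay above the other 6. The separation from DMSO is that of the rule's own libraries and was not tested. Against P-SiaFNEtoc, an exact permutation test over libraries (two-sided) gave p = 0.0121, the smallest that 8 against 3 libraries allow. It treats the 8 libraries as interchangeable repeats, although they come from 3 inhibitors with shares of unlike size. The p-value thus restates the full separation of these libraries and does not test an effect common to the inhibitors. Fucotrim I libraries held 8.67 to 14.2%, Fucotrim II libraries 17.0 and 12.2%, and SGN-2FF libraries 8.27 to 8.69%. The part of this share, which differs between the groups, in the other results was not tested. With mitochondrial genes left out of totals and scaling, 3227 of the 3246 genes were still tested, and 3113 of these stayed on their side of DMSO.

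**Figure D4:**
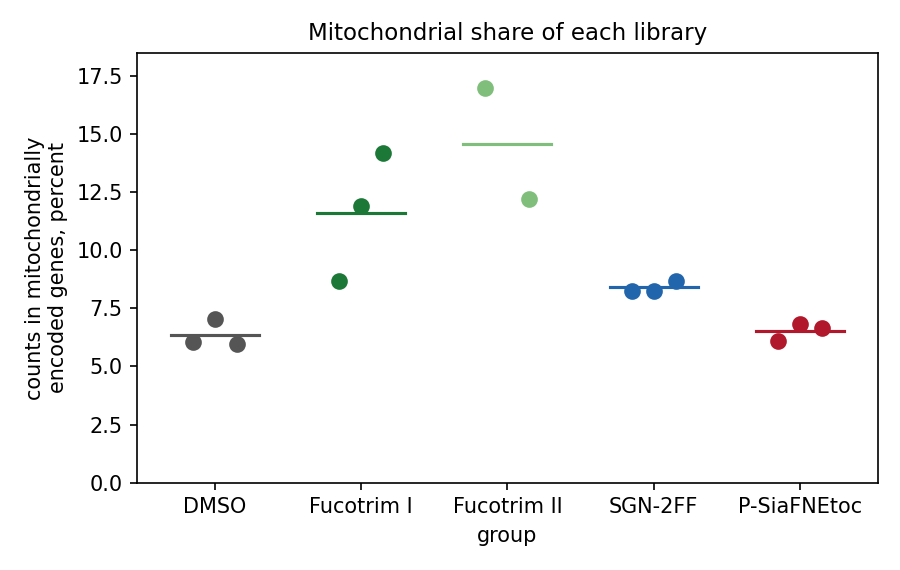
Share of each library's counts in mitochondrially encoded genes, in percent, by group. Points are libraries and lines group means. DMSO and P-SiaFNEtoc stay at or below 7.03%, and all 8 libraries of the fucosylation inhibitors lie at or above 8.27%.

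Cytosolic ribosomal protein genes also lay above DMSO, by smaller steps. Of 81 tested, 49 were above (60.5%) and 0 below, and 4 passed the pooled test (72 higher and 1 lower in the fit of 4 groups). With P-SiaFNEtoc 4 lay above and 8 below. The median log2 fold change was 0.26 under Fucotrim I, 0.64 with Fucotrim II, 0.09 with SGN-2FF and -0.02 with P-SiaFNEtoc. RPL28 had 542, 552 and 554 CPM in DMSO, 587 to 1289 with the inhibitors (median 754) and 523, 517 and 583 with P-SiaFNEtoc. The lowest treated library, of SGN-2FF, was close to the controls, and RPL28 did not pass the pooled test (adjusted p = 0.0637). RPL38, which passed (log2 fold change 0.39, adjusted p = 0.0387), lost its call without any 1 DMSO library.

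Genes of the cell cycle lay below DMSO, and P-SiaFNEtoc shared this. Of 54 genes of the G2 and M phase list, 30 were below (55.6%) and 0 above, and P-SiaFNEtoc was below DMSO for 27 of the 30. The pooled test, which counts the spread between inhibitors as error, called 1 member, and the fit of 4 groups called 48 lower. The median log2 fold change was -0.33 under Fucotrim I, -0.88 with Fucotrim II, -0.12 with SGN-2FF and -0.18 with P-SiaFNEtoc. BUB1, a kinase of the spindle checkpoint, had 99, 95.4 and 96.9 CPM in DMSO, 35.9 to 83.3 with the inhibitors (median 64.5) and 79.4, 75.5 and 83.3 with P-SiaFNEtoc. The SGN-2FF and P-SiaFNEtoc libraries shared 1 range, below DMSO and above the Fucotrims (pooled log2 fold change -0.63 ± 0.22, adjusted p = 0.0636). With each inhibitor as a group of its own (4 groups), BUB1 was called, with log2 fold change -0.77 and adjusted p = 1.13e-09, as was CKAP2L at -0.69 (adjusted p = 5.98e-08). CKAP2L, a spindle protein, had log2 fold changes of -0.54 ± 0.07, -1.24 ± 0.08 and -0.30 ± 0.06 under Fucotrim I, Fucotrim II and SGN-2FF, beside -0.37 ± 0.05 with P-SiaFNEtoc (pooled adjusted p = 0.0554). Of 43 S phase genes, 19 lay below (44.2%), 18 of them also with P-SiaFNEtoc, and 6 passed the pooled test (34 in the fit of 4 groups). RRM2, a subunit of ribonucleotide reductase, fell by 0.46 ± 0.11 (adjusted p = 0.0221, and up to 0.107 without 1 DMSO library) and by 0.30 ± 0.04 with P-SiaFNEtoc (adjusted p = 1.67e-06).

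The promoter of CKAP2L is shown for the cell cycle homology region, CHR, TTTGAA, through which many G2 and M phase genes are regulated. Capitals mark it on either strand, with CCAAT boxes.
CKAP2L (chr2:112764560-112764859, minus strand): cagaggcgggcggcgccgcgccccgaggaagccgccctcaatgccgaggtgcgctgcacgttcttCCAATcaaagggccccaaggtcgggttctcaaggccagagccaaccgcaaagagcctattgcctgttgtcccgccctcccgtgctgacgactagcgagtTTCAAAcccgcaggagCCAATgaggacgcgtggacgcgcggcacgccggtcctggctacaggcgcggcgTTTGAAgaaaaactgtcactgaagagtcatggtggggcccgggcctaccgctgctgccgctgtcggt
TTTGAA was present in 31 of 45 G2 and M phase promoters with an entry and in 18 of the 25 whose genes lay below DMSO. It was found in 12.9% of promoters of all genes below DMSO, 6.51% of those above, 9.52% of all tested and 15.4% of all RefSeq promoters.

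**Figure D5:**
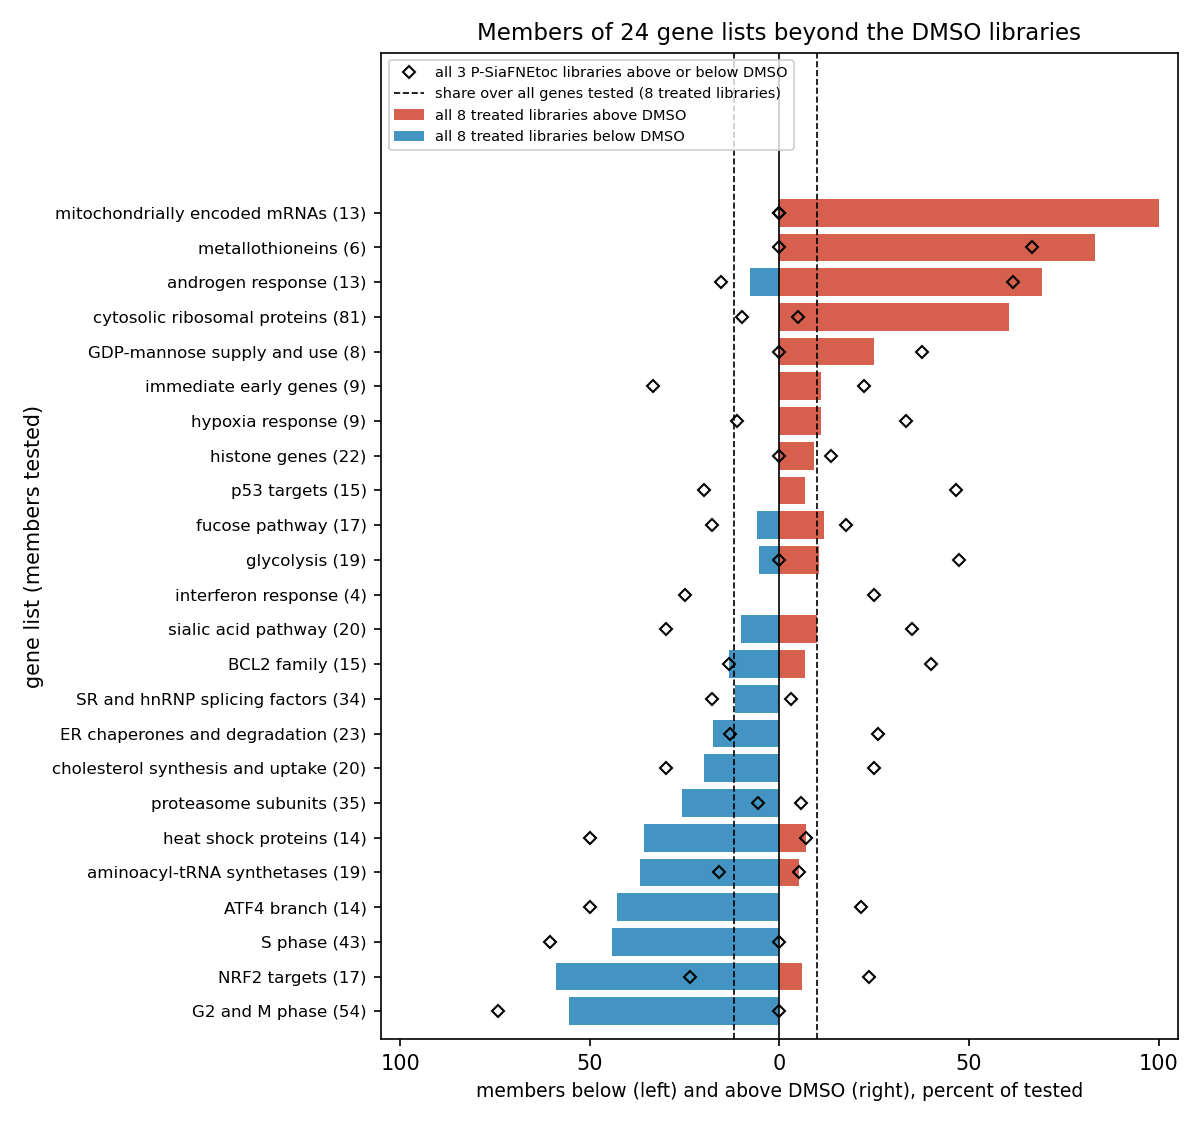
Percent of tested members of each of 24 gene lists with all 8 treated libraries above DMSO (red, right) or below (blue, left). Diamonds give the same for the 3 P-SiaFNEtoc libraries, and dashed lines the shares over all genes, 9.93% above and 11.9% below. Mitochondrial mRNAs reach 100% to the right and NRF2 targets 58.8% to the left.

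For the other lists, shares stand beside those over all genes, 9.93% above DMSO and 11.9% below. Of 35 proteasome subunits 9 lay below DMSO (25.7%), and of 34 splicing factors 4 (11.8%), with 0 called by the pooled test and none above in either list. The fit of 4 groups called 20 and 16 of them lower and 1 and 2 higher. Of 15 members of the BCL2 family, 1 lay above DMSO (6.67%) and 2 below (13.3%), shares near those of all genes. The fit of 4 groups called 6 members higher and 3 lower. By the pooled test, the death effector BAX rose by 0.42 ± 0.11 (adjusted p = 0.029) and the survival factor MCL1 fell by 0.25 ± 0.07 on the log2 scale (adjusted p = 0.0376), while BCL2 lay below DMSO without passing (-0.42, adjusted p = 0.085). Both calls were lost without any 1 DMSO library (highest adjusted p = 0.142 and 0.164). Of 15 p53 targets TNFRSF10B alone lay above (6.67%, log2 fold change 0.30, adjusted p = 0.0578) and none below. Of 19 glycolysis genes 2 lay above (10.5%) and 1 below (5.26%). The lactate exporter SLC16A3 in this list rose by 0.55 ± 0.10 (adjusted p = 0.0056), and by 0.50 ± 0.06 with P-SiaFNEtoc (adjusted p = 4.68e-07). Of 9 hypoxia genes VEGFA lay above (11.1%, log2 fold change 0.34, adjusted p = 0.103), and of 9 immediate early genes MYC (11.1%, log2 fold change 0.22, adjusted p = 0.0548). Of 22 histone genes 2 lay above (9.09%), and of 4 interferon genes 0 lay on either side.

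Among the leading genes outside these lists, ID2, an inhibitor of helix-loop-helix transcription factors (chr2:8682056-8684461, GRCh38.p14), had nearly the same fold change with each inhibitor. It had 174, 190 and 185 CPM in DMSO, 115 to 128 with the inhibitors (median 120) and 181, 177 and 192 with P-SiaFNEtoc. The log2 fold change was -0.59 ± 0.05 under Fucotrim I, -0.60 ± 0.07 under Fucotrim II and -0.62 ± 0.04 under SGN-2FF. It fell by 0.60 ± 0.05 (adjusted p = 2.81e-05) and lay 0.61 below P-SiaFNEtoc (log2 difference -0.61 ± 0.05, adjusted p = 8.4e-05). OSGIN1, TXNRD1 and ID2 were the 3 named genes whose difference from P-SiaFNEtoc passed in all 11 fits that left out 1 library.

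IGFBP3, a secreted protein that binds insulin-like growth factors (chr7:45912245-45921272, GRCh38.p14), moved in opposite directions. It had 213, 194 and 219 CPM in DMSO, 60 to 120 with the inhibitors (median 85.7) and 221, 223 and 248 with P-SiaFNEtoc. It fell by 1.19 ± 0.18 on the log2 scale (adjusted p = 0.00301), whereas with P-SiaFNEtoc it rose by 0.15 ± 0.05 (adjusted p = 0.0366). The direct difference was -1.34 ± 0.18 (adjusted p = 0.00488, and 0.0544 without P-SiaFNEtoc replicate 3). IGF1R, the receptor of those growth factors, had 11.4, 11.6 and 11 CPM in DMSO, 18.7 to 39.5 with the inhibitors (median 28) and 11.5, 12.1 and 9.33 with P-SiaFNEtoc. It rose by 1.23 ± 0.20 (adjusted p = 0.00414) and differed from P-SiaFNEtoc by 1.27 ± 0.21 (adjusted p = 0.0111).

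SLC26A3, an intestinal chloride and bicarbonate exchanger (chr7:107765469-107803223, GRCh38.p14), rose from 1.15, 0.834 and 1.13 CPM in DMSO to 2.65 to 7.53 with the inhibitors (median 6.28), beside 1.44, 1.26 and 1.01 with P-SiaFNEtoc. The log2 fold change was 2.40 ± 0.37 (adjusted p = 0.00281), and 2.14 ± 0.36 against P-SiaFNEtoc (adjusted p = 0.0128). TTLL6, a tubulin polyglutamylase, rose by 1.59 ± 0.23 (adjusted p = 0.00192), TENM1, a teneurin of the cell surface, by 1.09 ± 0.20 (adjusted p = 0.00736) and MYH15, a myosin heavy chain, by 1.08 ± 0.24 (adjusted p = 0.0161), each with P-SiaFNEtoc overlapping DMSO. Their differences from P-SiaFNEtoc were 1.27, 1.04 and 1.04 on the log2 scale (adjusted p = 0.0135, 0.0225 and 0.0348). A pass of this test was part of the choice of SLC26A3, TTLL6, TENM1, MYH15, IGF1R, OSGIN1, ID2, IGFBP3, RND3 and DLX3. On the lower side, RND3, a small GTPase, had log2 fold changes of -1.45 ± 0.11, -2.04 ± 0.13 and -0.93 ± 0.10 under the inhibitors in turn (Fucotrim I, Fucotrim II, SGN-2FF), and its difference from P-SiaFNEtoc was -1.15 ± 0.22 (adjusted p = 0.0228). For DLX3, a homeobox factor, that difference was -1.13 ± 0.15 (adjusted p = 0.00401). Without any 1 P-SiaFNEtoc library SLC26A3, TTLL6, TENM1, MYH15, RND3 and IGF1R lost the call against P-SiaFNEtoc (highest adjusted p = 0.107, 0.124, 0.165, 0.213, 0.154 and 0.104), and DLX3 lost it without P-SiaFNEtoc replicate 3 (0.0587). Against DMSO, the calls of MYH15, TENM1 and DLX3 were each lost without at least 1 DMSO library (highest adjusted p = 0.0979, 0.0563 and 0.0513).

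Other leading genes moved with P-SiaFNEtoc as well, by smaller steps. INMT, a methyltransferase of tryptamines, rose by 2.10 ± 0.26 (adjusted p = 0.000529) and by 1.17 ± 0.23 with P-SiaFNEtoc (adjusted p = 0.000697). ABCC11, an efflux transporter, rose by 1.75 ± 0.24 and by 0.78 ± 0.13 with P-SiaFNEtoc, PGC, which encodes pepsinogen C, by 1.59 ± 0.23 and 0.69 ± 0.16, and SPOCD1 by 1.73 ± 0.24 and 0.91 ± 0.20. TSPAN1, a tetraspanin, had 45.8, 46 and 48.5 CPM in DMSO, 98.8 to 139 with the inhibitors (median 111) and 81.1, 84.3 and 90.8 with P-SiaFNEtoc, in 3 ranges apart from each other. NEURL1, a ubiquitin ligase, rose by 1.10 ± 0.09 (adjusted p = 1.84e-05) and by 0.84 ± 0.09 with P-SiaFNEtoc (adjusted p = 1.73e-08), and the difference between them did not pass (0.26 ± 0.08, adjusted p = 0.112).

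Among the lower genes, DHRS2, a short-chain dehydrogenase, differed in size between the inhibitors. It had 132, 141 and 146 CPM in DMSO, 14 to 70.3 with the inhibitors (median 27.4) and 82, 83.2 and 87 with P-SiaFNEtoc. The SGN-2FF libraries, at 62.8 to 70.3 CPM, lay between those of the Fucotrims and P-SiaFNEtoc. DHRS2 fell by 1.84 ± 0.39 on the log2 scale (adjusted p = 0.0167, and up to 0.0745 without 1 DMSO library) and with P-SiaFNEtoc by 0.73 ± 0.05 (adjusted p = 8.4e-13). MAPK4, an atypical kinase, fell by 0.97 ± 0.09 (adjusted p = 5.54e-05), SMAD9, a mediator of bone morphogenetic protein signals, by 0.85 ± 0.09 (adjusted p = 0.000248) and SEMA3E, a semaphorin, by 1.14 ± 0.16 (adjusted p = 0.00106), and P-SiaFNEtoc lay below DMSO for all 3. RBFOX2, a splicing regulator, and DACH1, a transcriptional corepressor, fell by 0.98 ± 0.21 and 0.99 ± 0.18 (adjusted p = 0.013 and 0.0073). Without DMSO replicate 2 the calls of RBFOX2 and DACH1 were lost, as was that of RBFOX2 without DMSO replicate 1 (highest adjusted p = 0.0999 and 0.0566).

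The genes below DMSO differed from those above in type, length, count level and promoter matches. By RefSeq, 98.3% of the lower genes were protein coding, against 89.6% of the higher and 90.2% of all tested. Their median gene length was 50.2 kb, beside 14.7 kb for the higher genes and 28.4 kb for all. The median of the mean count per library, taken from the rule's own libraries, was 831 for the lower, 557 for the higher and 387 for all. The top quartile of genes by count held 41.8% of the lower and 33.2% of the higher genes. The share beyond DMSO rose from the lowest to the top quartile by count, from 6.26 to 13.2% above and from 2.28 to 19.9% below, and the part of depth in these shares was not tested. The CCAAT box was in 41.6% of promoters of lower genes, 32.4% of higher and 36.7% of all tested, and the antioxidant response element core in 16.7%, 15.3% and 15.2%. These shares are a description and were not tested.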

How the data were processed

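The authors deposited tables of raw counts per gene, one for each treatment with the DMSO libraries beside it. By the study's methods, single reads of stranded mRNA libraries were trimmed with Cutadapt, aligned to hg38 with HISAT2 and counted with featureCounts in Galaxy. The strand setting of the counting is not given in the sources used here. The tables were joined on their gene identifiers (27819 genes in all 4), and the DMSO counts were identical in each. The 14 libraries were filtered together with filterByExpr (at least 10 counts, total at least 15) and scaled by TMM. The main test was edgeR 4.0.16's quasi-likelihood test in R 4.3.3, with Benjamini-Hochberg adjustment and a threshold of 0.05. It was also tested on simulated data in which the 3 inhibitors shared the same fold change. That check thus does not cover the spread between the inhibitors. limma 3.58.1 (voom), DESeq2 1.42.0, other scalings, filters, blocks and each library left out were alternatives. Leaving out both Fucotrim II libraries was chosen after seeing the data. Intervals given as ± are standard errors of the fit. Named genes of the rule had a mean of at least 50 counts and ranked highest by their smallest absolute log2 fold change over the 3 inhibitors: 12 higher and 12 lower, up to 4 for each of 24 pathway lists, and 5 in each direction shared or not shared with P-SiaFNEtoc, beside every fucose pathway gene. The genes not shared with P-SiaFNEtoc were taken only where they passed the direct test against it. Other list members were named only to identify a count. The members and lists were chosen with earlier results of these data known. The study's methods state 3 repeats per condition. For Fucotrim II, 2 libraries were analysed here. Promoters and gene positions came from RefSeq (GRCh38.p14). Results for some genes are not reported here.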

Additional observations from a re-analysis of the deposited data

Results flagged for a closer look

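Of the 97 named genes of the rule, 25 differed between the fucosylation inhibitors and P-SiaFNEtoc in edgeR's direct test (8 against 3 libraries, adjusted p under 0.05). Over all 14877 genes, that test called 131 higher (0.881%) and 103 lower (0.692%). A pass was part of the choice of SLC26A3, TTLL6, IGF1R, MYH15, TENM1, IGFBP3, OSGIN1, RND3, DLX3 and ID2, so the count of 25 partly restates the choice. Among genes above DMSO, the log2 difference was 2.14 for SLC26A3, 1.27 for TTLL6, 1.27 for IGF1R, 1.04 for MYH15 and 1.04 for TENM1, genes for which P-SiaFNEtoc overlapped with DMSO. For genes that P-SiaFNEtoc also held above DMSO, it was 0.97 for ABCC11, 0.91 for PGC, 0.82 for SPOCD1, 0.63 for TMPRSS2, 0.60 for SLC45A3 and 0.41 for TSPAN1. The metallothioneins MT1G, MT1X and MT1E gave 1.07, 0.96 and 0.82.

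Among genes below DMSO, the log2 difference was -1.34 for IGFBP3, -1.17 for OSGIN1, -1.15 for RND3, -1.13 for DLX3, -0.61 for ID2 and -0.31 for ST3GAL1, none of which P-SiaFNEtoc held below DMSO. It was -0.63 for SMAD9, -0.59 for TXNRD1, -0.56 for GCLM, -0.51 for PSAT1 and -0.49 for MAPK4, which P-SiaFNEtoc also held below DMSO. OSGIN1, TXNRD1 and ID2 passed in all 11 fits that left out 1 library, and the other 22 lost the call in at least 1.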

How the results depend on the processing

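No log2 fold change of the 97 named genes of the rule changed its sign under the alternatives run. Their side of DMSO was lost in some settings by HNRNPR (kept in 19 of 25), HNRNPLL (21 of 25), SEL1L and PSMD14 (24 of 25 each). Among named genes outside the rule, FUT4, GFUS and SLC35C1, all near 0, changed sign in 5, 7 and 1 settings (ranges -0.10 to 0.12, -0.21 to 0.17 and -0.00 to 0.08). The pooled count of 1927 genes against DMSO was 2968 with DESeq2, 6936 with the inhibitors weighted equally in a fit of 4 groups, 7284 with all 14 libraries in a fit of 5 groups, 248 at an adjusted p under 0.01 and 171 to 3429 without 1 library. The count of 234 against P-SiaFNEtoc was 945, 5444 (14 libraries) and 34 in the same settings, 758 without both Fucotrim II libraries, and 11 to 701 without 1 library. P-SiaFNEtoc against DMSO (2342) gave 1453 with DESeq2, 998 with 14 libraries, 1153 at the stricter threshold and 1518 to 2090 without 1 library, and SGN-2FF (2997) gave 1914, 1695, 1581 and 1635 to 3122. With the replicate number as a block (replicate block), the pooled counts were 415 and 56 by the numbers of the titles and 705 and 67 by those of the library names. Deviations of same-numbered libraries correlated at -0.306 to 0.157 by the numbers of the titles and at -0.185 to 0.275 by those of the library names. By the library names, pairs of DMSO and a Fucotrim lay at 0.0271 to 0.255, and pairs of DMSO and SGN-2FF at -0.103 to 0.0348. The numbers were not taken to pair the libraries. The rule gave 3307 to 4160 genes without 1 library and 3524 without both Fucotrim II libraries, and it is easier to meet with fewer libraries. The counts by group rest on 2 or 3 libraries each, and the 3 DMSO libraries serve every comparison. Genes of low count, such as GFUS, could show only large changes at this depth. The causes of these shifts were not tested.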
